A study of Homo sapiens with 6 samples.

Results

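The Notch pathway genes described here are the receptors NOTCH1, NOTCH2 and NOTCH3, the ligands JAG1, JAG2 and DLL1, the target genes HES1, HES4 and HEY1, and the coactivator MAML1. They were found by symbol among the genes of the deposited count table, and all 10 of the 10 listed genes were present among 21776. RNA sequencing compared SCC25, an established human oral squamous cell carcinoma line labelled as wild type, under hypoxia (1% O2, 5% CO2 and balance nitrogen in a tri-gas incubator) and normoxia (air with 5% CO2), both for 12 h. Each condition had 3 libraries of the same line, grown in DMEM/F12 with serum and antibiotics. The labels name SCC25, whereas the study's account of this comparison names SCC9, another oral squamous carcinoma line. Whether the libraries came from separate cultures is not given in the sources used here, so the p-values measure the spread between these libraries, which may be technical.

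Notch receptors are single-pass membrane proteins that are switched on by ligands of the Jagged and Delta-like families on neighbouring cells. Ligand pulling exposes the receptor to the protease ADAM10 and then to gamma-secretase, which releases the intracellular domain into the nucleus. There it joins the DNA-binding protein RBPJ and a Mastermind-like protein such as MAML1 on target genes, of which the HES and HEY families of transcriptional repressors are the best known. In squamous epithelium Notch signalling is known for driving differentiation away from the basal layer, and NOTCH1 is often inactivated by mutation in head and neck squamous cell carcinoma.

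The total counts were 30186813, 36076088 and 32272716 in hypoxia libraries 1 to 3 and 37278703, 29637189 and 29981208 in normoxia libraries 1 to 3. More genes had at least 1 read in each hypoxia library (18766 to 18996) than in any normoxia library (17128 to 17505). A set of 10 hypoxia response genes served as a check of the labels, and all 10 of them rose under hypoxia. NDRG1, a stress response gene and the most abundant of them, rose by 5.40 on the log2 scale (SE 0.30), VEGFA by 2.80, the glucose transporter gene SLC2A1 by 1.49 and the glycolytic enzyme gene PGK1 by 0.72. In CPM (counts scaled to the size of the library after TMM, the trimmed mean of M values by which edgeR corrects for library composition), the summed level of the 10 genes was 1965 in normoxia library 3, above 1526 and 1473 in normoxia libraries 1 and 2. The hypoxia libraries were at 13727, 15540 and 15780 CPM, so normoxia library 3 stood slightly apart from the other normoxia libraries in their direction. Where the call of a listed gene was lost without it, or the log2-fold change of a listed gene or of one of the most changed other pathway genes moved by over 0.1, both values are given.

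The squamous origin was checked with 8 epithelial markers, of which 4 rose, 2 fell and TP63 did not pass the test. CDH1, which encodes E-cadherin, rose by 1.35 and PERP by 0.54 on the log2 scale, whereas EPCAM fell by 0.35 and KRT5 fell by 0.18. KRT14, a defining keratin of basal squamous cells, had 0 counts in 5 libraries and 1 count in normoxia library 2. The fibroblast markers (7 genes, most abundant COL1A1) summed to 22.1, 18.7 and 17.3 CPM under hypoxia and 4.03, 3.18 and 5.64 CPM under normoxia, with COL3A1 at 2, 0 and 1 counts under hypoxia and 0 counts in each normoxia library. The endothelial markers (5 genes in the table, most abundant CDH5) summed to 1.70, 1.32 and 1.60 CPM against 0.296, 0.315 and 0.744 CPM, with the defining gene PECAM1 at 5, 9 and 10 counts under hypoxia and 2, 0 and 0 counts under normoxia. The leukocyte markers (5 genes in the table, most abundant CD68) summed to 39.9, 44.0 and 45.6 CPM against 35, 33.6 and 37.1 CPM, with the pan-leukocyte gene PTPRC at 2 counts in hypoxia library 3 and 0 in the other libraries. CD68, most of that sum, was not called (log2-fold change -0.09), whereas CD14, a monocyte receptor gene, rose by 2.45, from a mean of 1.07 to 5.83 CPM. CSF1R, the receptor gene of a macrophage growth factor, rose by 2.49, from 1.10 to 6.33 CPM. Of the genes of these lists that were tested, 1 of 2 fibroblast (COL1A1, by 2.26), 1 of 1 endothelial (CDH5, by 1.14) and 2 of 3 leukocyte genes rose and none fell. Among those not tested, LUM had 27, 9 and 8 counts under hypoxia and 1, 1 and 2 under normoxia, and VWF had 10, 9 and 4 counts and 0 in each normoxia library. Fewer cells of a type and less RNA per cell cannot be told apart in bulk libraries. The part of other cells in the Notch results was not tested.

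Of the 10 Notch genes, 9 had enough reads for the test and all 9 passed it, with 6 higher and 3 lower under hypoxia. This has to be read against a background in which 77.8% of the 14255 genes tested passed at an adjusted p-value under 0.05, 39.2% higher and 38.5% lower. The 3 hypoxia libraries did not overlap the 3 normoxia libraries for any of the 9 tested genes, and the same held for 80.5% of all genes tested. A log2-fold change beyond 1 in size was reached by 2 of the 9, NOTCH3 and DLL1, against 30.4% of all genes tested. On the log2 scale the median change was 0.48 for the 9 Notch genes and 0.02 for the whole table of tested genes. With so large a background the number of calls is no result about these genes, and the levels and sizes of change are given gene by gene.

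**Figure D1:**
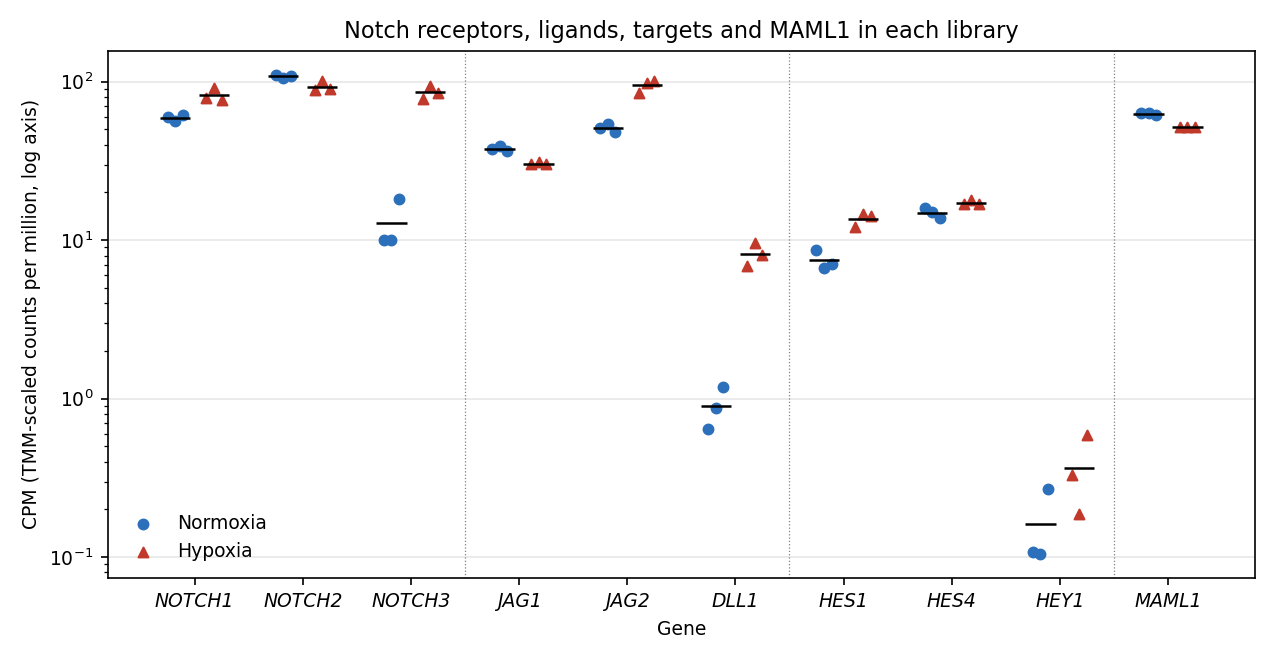
CPM (counts scaled to library size after TMM, log axis) of the 10 Notch genes in each of the 3 normoxia libraries (circles) and 3 hypoxia libraries (triangles), with bars at the mean of a condition. NOTCH3 and DLL1 show the widest gaps between conditions, and HEY1 is the single gene whose libraries overlap.

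NOTCH3 was the receptor with the largest difference between conditions. NOTCH3 (Entrez 4854) encodes a receptor best known from vascular smooth muscle and is also expressed in squamous epithelium. Reads counted on it numbered 2387, 3490 and 2754 in the hypoxia libraries and 372, 286 and 540 in the normoxia libraries. These correspond to 78.2, 93.8 and 84.9 CPM against 10.0, 10.0 and 18.3 CPM. The conditions did not overlap, and normoxia library 3 lay well above the other normoxia libraries. The fitted log2-fold change was 2.76 (SE 0.15, adjusted p = 2.89e-11), a 6.76-fold higher level. Without normoxia library 3 it was 3.08, and without normoxia library 1 it was 2.59.

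NOTCH1 (Entrez 4851), the receptor most often linked to squamous differentiation, showed a smaller rise. Its CPM were 79.4, 91.7 and 76.2 under hypoxia, against 59.5, 56.1 and 61.4 under normoxia. Every hypoxia library was above every normoxia library, with hypoxia library 2 the highest. The log2-fold change was 0.48 (SE 0.07, adjusted p = 5.57e-06), and it was 0.40 without hypoxia library 2.

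NOTCH2 (Entrez 4853) went the other way. Its CPM were 88.6, 101 and 90.4 under hypoxia, against 111, 106 and 109 under normoxia, so that the conditions were separate but close. The log2-fold change was -0.22 (SE 0.06, adjusted p = 0.00267). In FPKM (counts divided by gene length and by library size), tested with limma on log2(FPKM + 1), the difference was -0.15 with an adjusted p of 0.0533, so NOTCH2 was not called there. The other 8 tested Notch genes were called, as were 81% of the 10976 genes in that test. NOTCH2 has near-identical partial copies, the NOTCH2NL genes, and reads may have been split among them. NOTCH2NLA, NOTCH2NLB and NOTCH2NLC were in the table at mean levels of 6.82, 2.25 and 1.53 CPM under hypoxia, and none of the 3 was called. With the copies summed into NOTCH2 its log2-fold change was -0.19 (adjusted p = 0.00627).

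A comparison of the receptors within each library does not depend on the scaling between libraries. By FPKM, NOTCH3 made up 36.3%, 37.3% and 38.5% of the summed receptor level in the hypoxia libraries and 6.85%, 7.17% and 11.8% in the normoxia libraries. NOTCH2 made up 30.3%, 29.5% and 30.2% against 55.9%, 56.0% and 51.9%. Thus NOTCH2 was the main receptor transcript under normoxia, and NOTCH3 held the largest share in each hypoxia library. The share of NOTCH1 was 32.6% ± 1.12 (SD, n = 3) under hypoxia and 36.5% ± 0.449 under normoxia, a smaller gap that did not overlap either. The summed receptor level was 26.8 ± 2.61 FPKM under hypoxia and 16.6 ± 1.03 FPKM under normoxia. NOTCH4, the remaining receptor gene, had 1, 1 and 2 counts under hypoxia and 10, 8 and 8 counts under normoxia and was not tested.

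The within-library ratio of NOTCH3 to NOTCH2 FPKM was 1.2, 1.26 and 1.27 under hypoxia and 0.123, 0.128 and 0.228 under normoxia, a difference of 3.03 on the log2 scale. The ratio of NOTCH3 to NOTCH1 differed by 2.33 on the same scale, and that of NOTCH1 to NOTCH2 by 0.70. None of these 3 ratios overlapped between conditions. With 3 libraries a side, the two-sided exact permutation test cannot go below p = 0.1, and each of the 3 receptor ratios and 3 ligand ratios compared reached that value (adjusted p = 0.1 over the 6). The same limit holds for the shares and sums of receptors and ligands, of which 11 were compared by the exact permutation test, each with p = 0.1.

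**Figure D2:**
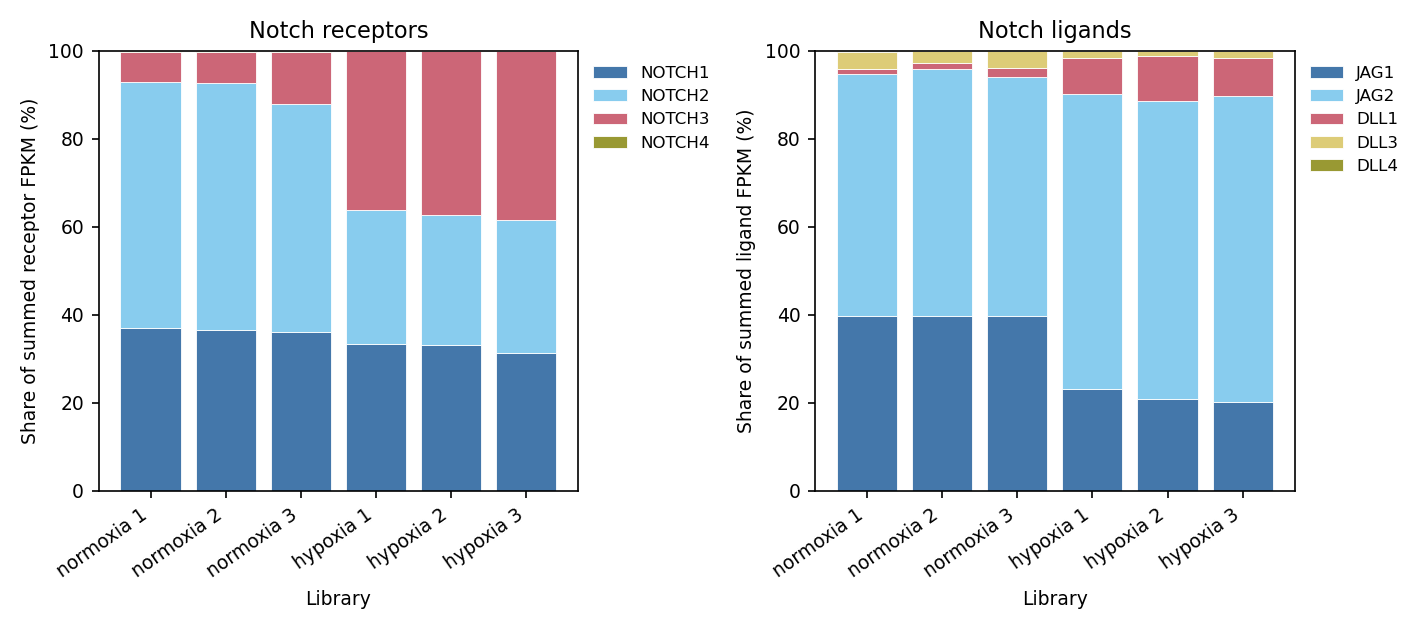
Share of the summed FPKM (%) taken by each receptor gene (left) and each ligand gene (right) in the 3 normoxia and 3 hypoxia libraries, 1 stacked bar a library. NOTCH3 takes between 6.85% and 11.8% of receptor FPKM in the normoxia libraries and between 36.3% and 38.5% in the hypoxia libraries, and JAG1 takes 39.7% ± 0.0489 (SD, n = 3) of ligand FPKM under normoxia and 21.4% ± 1.47 under hypoxia.

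Among the ligands, DLL1 showed the largest difference. DLL1 (Entrez 28514) is a Delta-like ligand that activates Notch on adjacent cells. The hypoxia libraries held 210, 359 and 263 counts of it and the normoxia libraries 24, 25 and 35 counts. These are 6.88, 9.65 and 8.11 CPM against 0.645, 0.874 and 1.18 CPM, with a wide gap between the conditions. The log2-fold change was 3.21 (SE 0.22, adjusted p = 5.45e-10), a 9.24-fold higher level. It ranged from 2.98 without normoxia library 1 to 3.44 without normoxia library 3. On the log2(FPKM + 1) scale, which understates the change of low genes, the difference was 1.37.

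The Jagged ligands moved in opposite directions. JAG2 (Entrez 3714) had 85.5, 98.5 and 100 CPM under hypoxia and 50.7, 53.9 and 48.4 CPM under normoxia. All hypoxia libraries were above all normoxia libraries, and the log2-fold change was 0.90 (SE 0.07, adjusted p = 1.60e-09). JAG1 (Entrez 182) had 30.2, 31.1 and 30.1 CPM under hypoxia and 37.7, 39.1 and 36.4 CPM under normoxia. Its conditions were also separate, with a log2-fold change of -0.31 (SE 0.07, adjusted p = 4.10e-04). JAG2 shares 469 exonic bases with AL512356.1 on the same strand in GENCODE v29, and JAG1 shares 79 bases with AL050403.2 on the opposite strand. Neither of these overlapping genes was in the table, and the strand setting of the counting is not given in the sources used here, so some reads may be theirs.

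Within the libraries, JAG2 FPKM was 2.91, 3.26 and 3.43 times that of JAG1 under hypoxia and 1.38, 1.42 and 1.37 times under normoxia, a difference of 1.2 on the log2 scale. The DLL1 to JAG1 ratio differed by 3.53 and the DLL1 to JAG2 ratio by 2.33. DLL1 was the smallest of the 3 listed ligands by FPKM in both conditions, at 8.98% ± 1.02 of the summed ligand level under hypoxia and 1.49% ± 0.487 under normoxia (SD, n = 3). JAG2 was the largest in both conditions, with 68.2% ± 1.23 under hypoxia and 55.2% ± 0.927 under normoxia. The summed ligand level was 24.5 ± 1.90 FPKM against 15.7 ± 0.442 FPKM.

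For the promoters of the listed genes, the 250 bases before the annotated start were read from a RefSeq table of GRCh38.p14, which holds 8 of the 10 genes, without DLL1 and HEY1. ACGTG and GCGTG, the letters at the core of hypoxia response elements to which HIF binds, were searched on both strands, and so was TGGGAA, a core letter string of RBPJ sites. ACGTG was in 18.5% of all 35116 promoters of that length, GCGTG in 32.2% and either in 43.2%. The sequences of NOTCH3, JAG2 and JAG1 are printed here because these genes differ in the direction of their change; capitals mark matches, a match on the opposite strand reading CACGC for GCGTG. The windows are chr19:15200996-15201245, minus strand for NOTCH3, chr14:105168777-105169026, minus strand for JAG2 and chr20:10674000-10674249, minus strand for JAG1, written 5′ to 3′ in the direction of the gene.
NOTCH3: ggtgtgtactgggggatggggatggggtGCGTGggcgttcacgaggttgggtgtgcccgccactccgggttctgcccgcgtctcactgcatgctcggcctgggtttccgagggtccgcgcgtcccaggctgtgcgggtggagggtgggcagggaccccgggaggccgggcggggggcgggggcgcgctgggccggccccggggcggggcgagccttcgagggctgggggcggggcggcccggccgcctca
JAG2: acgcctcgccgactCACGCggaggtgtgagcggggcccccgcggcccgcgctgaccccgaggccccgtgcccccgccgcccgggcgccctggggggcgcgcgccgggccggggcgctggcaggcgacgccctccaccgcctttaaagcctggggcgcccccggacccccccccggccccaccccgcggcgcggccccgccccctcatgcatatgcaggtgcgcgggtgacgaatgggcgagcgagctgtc
JAG1: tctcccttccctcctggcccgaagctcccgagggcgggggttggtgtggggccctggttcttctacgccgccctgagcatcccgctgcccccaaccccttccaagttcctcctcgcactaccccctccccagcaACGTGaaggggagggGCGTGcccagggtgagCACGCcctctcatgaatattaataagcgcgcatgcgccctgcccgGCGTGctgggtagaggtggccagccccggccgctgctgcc

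JAG1, which fell, had the most hypoxia response cores of the 8 genes, with ACGTG from -116 to -112 relative to the start and GCGTG from -101, -85 and -40. NOTCH3 and JAG2, which rose, had 1 GCGTG each, starting at -222 and -236. NOTCH1 and HES1, which also rose, had 2 matches to GCGTG each, HES4 had 1, MAML1 had 3 and NOTCH2 had none of the strings searched. Of all promoters, 10.2% held GCGTG 2 or more times. A match is a description of the letters and not a site in use, and windows without a match say nothing of binding elsewhere.

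Of the target genes, HES1 rose most clearly. HES1 (Entrez 3280) encodes a basic helix-loop-helix repressor and is a commonly used readout of Notch activity. Its CPM were 12.2, 14.7 and 14.3 under hypoxia, against 8.68, 6.67 and 7.06 under normoxia. The conditions did not overlap, and normoxia library 1 was the highest of the normoxia libraries. The log2-fold change was 0.87 (SE 0.13, adjusted p = 6.72e-06), a 1.83-fold higher level.

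HES4 (Entrez 57801), a related repressor, was at the edge of the threshold. Its CPM were 16.8, 17.9 and 16.9 under hypoxia, against 15.9, 15 and 13.7 under normoxia, separated by less than 1 CPM at the nearest libraries. The log2-fold change was 0.21 (SE 0.09, adjusted p = 0.0498). The call was lost in 8 of 11 alternatives, with the adjusted p reaching 0.206 and the log2-fold change 0.14 without normoxia library 3. By limma on FPKM the difference was 0.23 (adjusted p = 0.0102).

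HEY1 (Entrez 23462), a target in the related HEY family, was close to the limit of detection. It had 10, 7 and 19 counts under hypoxia and 4, 3 and 8 counts under normoxia and did not pass the filter on low counts. The conditions overlapped, and the levels were 0.328, 0.188 and 0.586 CPM against 0.107, 0.105 and 0.270 CPM, where 3 counts correspond to between 0.0806 and 0.105 CPM. Without the filter the log2-fold change was 1.14 (adjusted p = 0.185).

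The promoters of HES1 and HES4 are printed because they were the only ones of the 8 to hold TGGGAA, a string in 20.8% of all promoters. HES1 held it at -84 to -79 and again at -70 to -65, and 2.9% of all promoters held it 2 or more times. HES4 held it once, at -76 to -71, and no match overlapped one of another string. Capitals mark TGGGAA and GCGTG, and the windows are chr3:194135898-194136147, plus strand for HES1 and chr1:1000098-1000347, minus strand for HES4.
HES1: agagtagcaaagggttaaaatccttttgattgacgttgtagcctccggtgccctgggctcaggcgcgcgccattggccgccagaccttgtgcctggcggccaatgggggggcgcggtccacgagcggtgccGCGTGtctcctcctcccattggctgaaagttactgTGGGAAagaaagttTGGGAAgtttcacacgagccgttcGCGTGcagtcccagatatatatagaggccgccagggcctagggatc
HES4: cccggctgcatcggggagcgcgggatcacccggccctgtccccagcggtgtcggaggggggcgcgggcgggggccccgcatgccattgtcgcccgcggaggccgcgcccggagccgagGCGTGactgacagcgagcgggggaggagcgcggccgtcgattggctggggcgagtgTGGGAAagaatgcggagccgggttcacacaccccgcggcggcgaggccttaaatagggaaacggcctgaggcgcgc

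**Figure D3:**
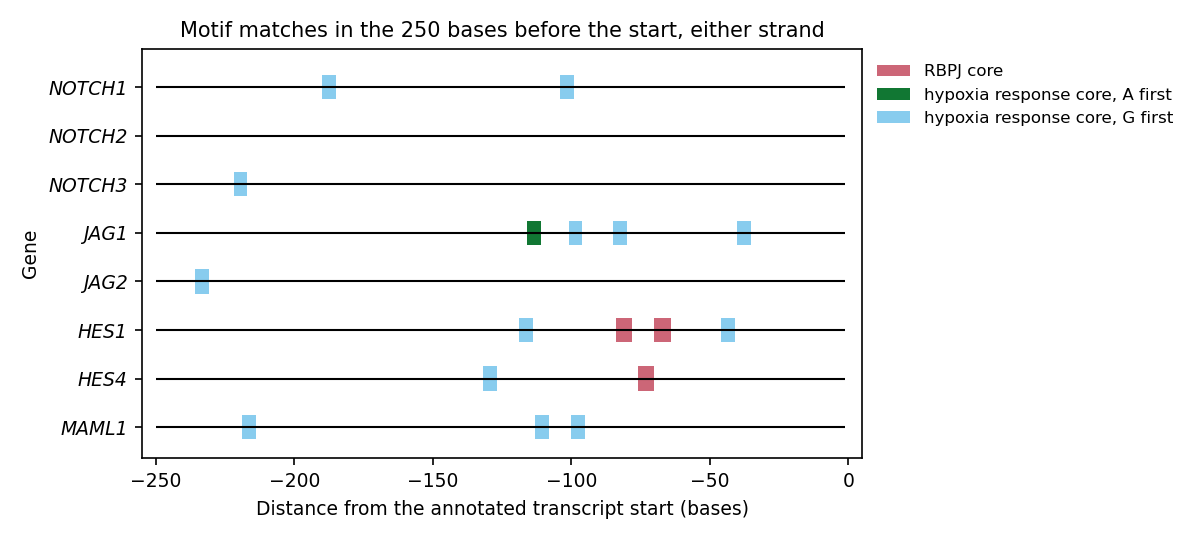
Positions of TGGGAA (RBPJ core), ACGTG (hypoxia response core, A first) and GCGTG (G first) on either strand, as distance in bases from the annotated start, in the 250 bases before the start of 8 listed genes. HES1 and HES4 hold the RBPJ core, JAG1 holds 4 hypoxia response cores and NOTCH2 holds none of the strings.

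MAML1 (Entrez 9794), which bridges the Notch intracellular domain and histone acetyltransferases, fell slightly. Its CPM were 52.1, 52.1 and 52.0 under hypoxia, against 63.0, 63.4 and 61.9 under normoxia. The libraries of a condition were nearly identical and the conditions were separate. The log2-fold change was -0.27 (SE 0.06, adjusted p = 2.63e-04). Its paralogue MAML2 rose by 0.77 (SE 0.07), and its mean level per length was 7.62 FPKM under hypoxia and 4.32 FPKM under normoxia, compared with 9.20 and 10.7 FPKM for MAML1.

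The order of the 10 genes by FPKM, a level per length, differed between the conditions (mean ± SD, n = 3). JAG2 was at 16.7 ± 1.48 FPKM under hypoxia, rank 1 of the 10 and above all the others, and at 8.68 ± 0.377 FPKM under normoxia, rank 3. NOTCH3 was at 10.0 ± 1.03 FPKM and rank 2 under hypoxia, and at 1.45 ± 0.546 FPKM and rank 8 under normoxia. No other listed gene moved by as many ranks. MAML1 was at 9.20 ± 0.129 FPKM under hypoxia and at 10.7 ± 0.184 FPKM under normoxia, where it was above every other gene. HES4 was at 9.11 ± 0.447 FPKM under hypoxia and 7.62 ± 0.622 FPKM under normoxia, rank 4 in both. HES1 was at 8.83 ± 0.925 FPKM against 4.67 ± 0.736 FPKM. From NOTCH3 to NOTCH2, ranks 2 to 7 under hypoxia, each gene overlapped its neighbour in the order, so adjacent ranks cannot be told apart. Farther apart in that order, NOTCH3, MAML1 and HES4 each lay above NOTCH2 without overlap. NOTCH1 was at 8.76 ± 0.990 FPKM under hypoxia and 6.07 ± 0.354 FPKM under normoxia. NOTCH2 was at 8.05 ± 0.670 FPKM against 9.06 ± 0.349 FPKM, rank 7 under hypoxia and rank 2 under normoxia. JAG1 was at 5.21 ± 0.156 FPKM against 6.25 ± 0.173 FPKM. Under normoxia NOTCH2 overlapped JAG2, JAG2 overlapped HES4, and JAG1 overlapped NOTCH1. DLL1 was at 2.21 ± 0.398 FPKM under hypoxia and 0.234 ± 0.0698 FPKM under normoxia, rank 9 in both. HEY1 was lowest in both, at 0.150 ± 0.0807 FPKM and 0.0638 ± 0.0378 FPKM.

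The other genes of the pathway were taken from a list of 62, of which 58 were in the table and 54 were tested. Of these 54, 25 were higher, 14 were lower and 15 were not called, so 72.2% were called against 77.8% of all genes. Their median log2-fold change was 0.10. Of the 54, 9 were called and went beyond 1 in size, against 30.4% of all genes tested. Among the glycosyltransferases that modify the receptor, all 5 were called, 3 higher and 2 lower. LFNG, a Fringe enzyme that elongates O-fucose on Notch and alters its response to the ligand families, was at 48.0, 48.7 and 49.8 CPM under hypoxia and 5.78, 6.08 and 8.55 CPM under normoxia. Its log2-fold change of 2.85 (SE 0.11, adjusted p = 4.22e-13) was the largest in size of the 54, and it was 3.03 without normoxia library 3. The other Fringe genes, MFNG and RFNG, rose by 1.66 and 0.52, respectively, whereas POFUT1, which adds the O-fucose that Fringe enzymes extend, fell by 0.78. POGLUT1, which adds O-glucose, fell by 0.88.

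In the ligand group, DLK2, a Delta-like protein without the domain by which ligands of this family activate Notch, had 276, 380 and 266 counts under hypoxia and 53, 56 and 67 counts under normoxia, a log2-fold change of 2.30 (SE 0.18). DLL3, which lies within the cell and inhibits Notch, had a log2-fold change of -0.69 and was not called (adjusted p = 0.0622), and DLL4 was not tested. Of the 4 ligand ubiquitin ligases, whose activity in the signalling cell allows a ligand to pull, NEURL1B rose by 1.5 and MIB2 by 0.55, and MIB1 (-0.09) and NEURL1 (0.70) were not called. Of the 9 proteases and protease subunits that cut the receptor, 5 were higher and 2 were lower. APH1B, a subunit of gamma-secretase, rose by 1.93 and the sheddase gene ADAM17 by 0.87, with ADAM10 at 0.35. FURIN, which cuts the receptor on its way to the surface, fell by 0.55, and PSEN2, a catalytic subunit of gamma-secretase, fell by 0.80.

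All 8 other genes of the coactivator complex were called, 5 higher and 3 lower, against 77.8% of all genes tested. With that background the counts by role, here and in the other groups, are no result about a role. RBPJ, the DNA-binding partner, was at 145, 157 and 150 CPM under hypoxia and 83.6, 74.8 and 84.3 CPM under normoxia, with a log2-fold change of 0.90 (SE 0.06, adjusted p = 2.84e-10). The acetyltransferase gene CREBBP fell by 0.51, whereas its paralogue EP300 rose by 0.26. Of the 12 corepressor genes tested, 3 rose and 3 fell and 6 were not called. TLE2, a Groucho family corepressor, rose by 2.04 and CIR1 by 0.83, while TLE1 fell by 0.77. Of the 10 genes of receptor turnover, 4 rose and 3 fell, among them the ubiquitin ligase gene DTX4 at 0.86 and FBXW7, which marks the intracellular domain for degradation, at -0.48. Without normoxia library 3 the log2-fold change was 1.80 for MFNG, 2.44 for DLK2, 2.26 for TLE2, 2.06 for APH1B, 1.62 for NEURL1B and 0.98 for DTX4, and each kept its call.

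The remaining genes listed as targets did not share a direction. NRARP, a Notch target that feeds back on the pathway by limiting the intracellular domain, was at 5.63, 4.36 and 4.16 CPM under hypoxia and 14.5, 14.6 and 12.7 CPM under normoxia. Its log2-fold change was -1.57 (SE 0.13, adjusted p = 8.85e-09), opposite in sign to that of HES1. HES6 rose by 1.11 and HES2 by 1.02, HES7 had 0.32 and was not called (adjusted p = 0.158), and HES5 was not tested with 1 count in all. Of the 6 tested genes listed as targets, HES1 and HES4 included, 4 were higher, 1 was lower and 1 was not called. HES6 and HES2 are among the 4, and whether Notch controls each listed target in these cells was not tested.

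**Figure D4:**
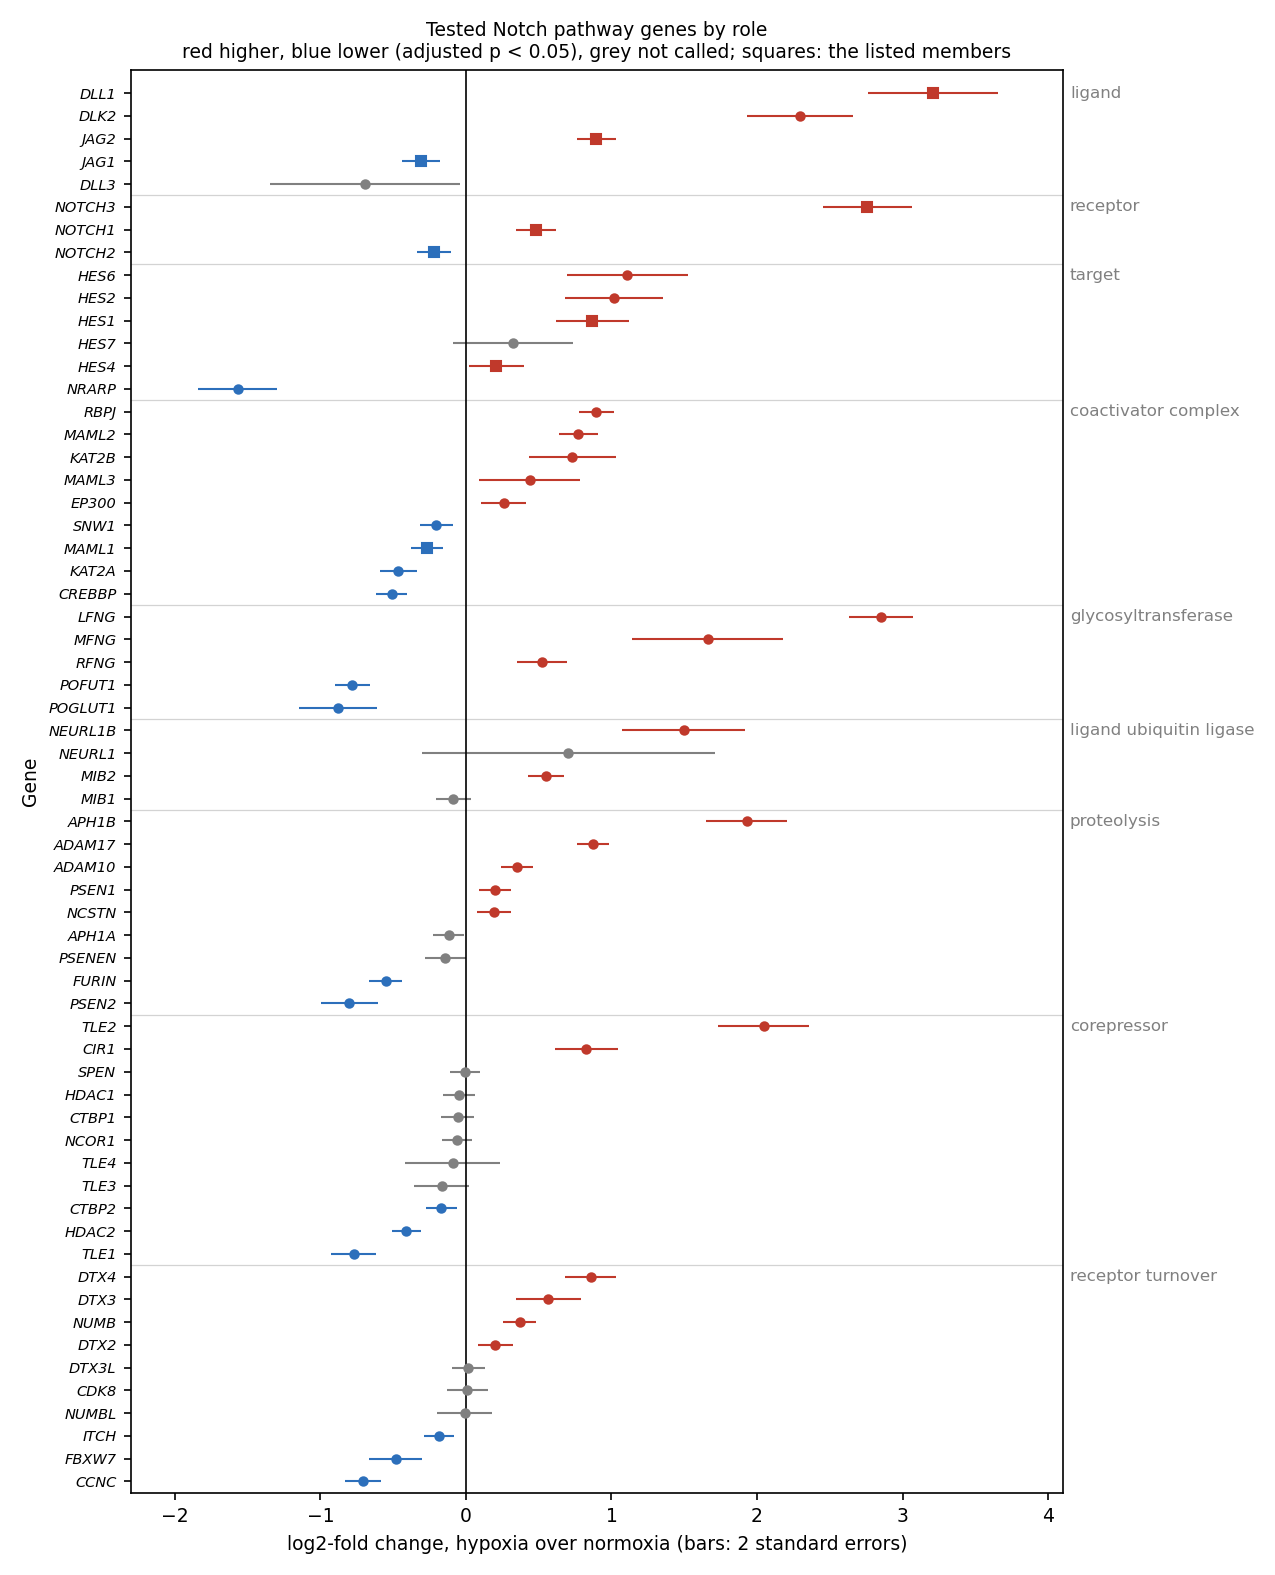
Log2-fold change, hypoxia over normoxia, of the tested Notch pathway genes by role (bars: 2 standard errors), with red for higher, blue for lower and grey for not called, and squares for the listed genes. DLL1 (3.21), LFNG (2.85) and NOTCH3 (2.76) lie farthest to the right and NRARP (-1.57) farthest to the left.

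Squamous differentiation genes, the textbook output of Notch in this tissue, were given by a list of 15, of which 12 were in the table and 7 were tested. Of the 7, 3 were higher, 2 were lower and 2 were not called, where 77.8% of all genes tested were called. Their median log2-fold change was -0.48. The cell cycle inhibitor gene CDKN1A, the most abundant of the list, rose by 0.57. The keratin gene KRT13 rose by 2.81, from 0.173 ± 0.0702 CPM under normoxia to 1.26 ± 0.0838 CPM under hypoxia (SD, n = 3). The suprabasal keratin gene KRT10 fell by 0.57 and the cornified envelope gene SPRR1B fell by 3.59, the latter from 2.18 ± 0.777 CPM under normoxia to 0.177 ± 0.153 CPM under hypoxia (SD, n = 3). FLG and KRT4 had at most 1 count in any library and were not tested.

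The calls on 8 of the 9 tested genes held under each of the other filters, normalizations, tests and left-out libraries tried on the counts, and HES4 was the exception. The log2-fold change of NOTCH3 lay between 2.59 and 3.08 in these fits, that of DLL1 between 2.98 and 3.44, that of JAG2 between 0.84 and 0.97 and that of HES1 between 0.79 and 0.98. NOTCH1 lay between 0.40 and 0.56, NOTCH2 between -0.28 and -0.14, JAG1 between -0.35 and -0.23 and MAML1 between -0.31 and -0.19. The smallest falls of NOTCH2, JAG1 and MAML1 came when at least 10 counts were required in every library. In that fit the log2-fold changes of all shared genes shifted by a median of 0.08, and without a filter by -0.04. The size of these small falls thus depends on the filter. No listed gene changed direction.

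**Figure D5:**
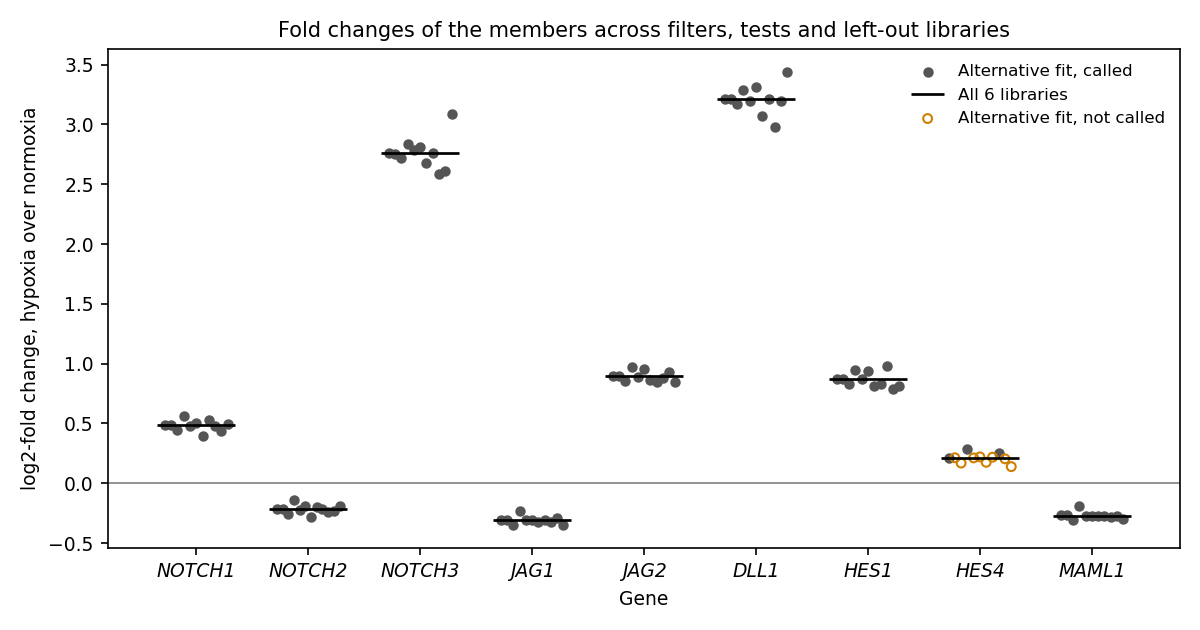
Log2-fold change, hypoxia over normoxia, of the 9 tested Notch genes in the fit of all 6 libraries (bars) and in each alternative filter, normalization, test or left-out library (points, open where not called). HES4 alone has open points, 8 of 11, and no gene crosses 0.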

How the data were processed

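Per the labels, RNA libraries were made with a SMARTER mRNA-Seq kit. The authors deposited whole-number read counts per gene without normalization and, for the same genes, FPKM, which could be recomputed from the counts, a gene length and the library total for 21775 genes (NMT1 was the exception). The aligner, counting tool, annotation and strand setting are not given in the sources used here. The submitters' processing notes name GRCm38 and mm10, which are mouse builds, although the genes carry human symbols, so no gene coordinates are given beyond the RefSeq promoters of GRCh38.p14.

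The count test was that of edgeR 4.0.16 in R 4.3.3 (quasi-likelihood F test, TMM, filterByExpr, condition as the only term) and p-values were adjusted by Benjamini-Hochberg over the 14255 genes tested, with a threshold of 0.05. Standard errors were derived as the absolute log2-fold change over the root of the F statistic. log2(FPKM + 1) was tested with limma 3.58.1 for the 10976 genes averaging 1 FPKM or more. Permutation tests were exact and two-sided. Alternatives were the DESeq2 1.42.0 Wald test and its size factors, no filter, at least 10 counts in every library, a minimum absolute log2-fold change of 1, a pseudocount of 0.1, the replicate number as a block and each library left out in turn. The scripts were tested on simulated data. A level of 3 counts was taken as the limit of detection, which covers counting error only. Replicates differed beyond sampling noise, with a chi-square of 5.11 to 11.5 for each gene on average.

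The members and gene lists were chosen with earlier results of these data known. Named were all 10 listed genes, the 15 other pathway genes with the largest log2-fold change in size among those called, expressed at a mean log2 CPM of 1 or more and not overlapping between conditions, and up to 4 genes with the highest mean CPM of each check or marker list. The other pathway and marker genes were named after their values were seen. Of the genes this rule names, 2 are not reported here by name or plotted, though they stay in the counts.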

Additional observations from a re-analysis of the deposited data

How the results depend on the processing

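Across left-out libraries the calls among all genes ranged from 10669 to 11390. Those among the 10 listed Notch genes ranged from 8 to 9 (HEY1 is among them where it entered the fit and passed). Those among the other pathway genes ranged from 38 to 40. Limma on FPKM called 8 listed genes each time, and with all 6 libraries it called 81% of the 10976 genes tested. Without hypoxia replicate 2, NOTCH2 took the place of DLL1 among the 8, since DLL1 then fell below the minimum FPKM. When an absolute log2-fold change over 1 was also required, 4338 of all genes, 2 of the listed genes and 9 of the other pathway genes passed, and 65.5% of the 4338 were higher against 50.5% of the 11090 calls. HES4 lost its call with the DESeq2 Wald test (adjusted p = 0.0661) and without a filter (0.165). Leaving out any single library other than normoxia replicate 1 also lost it. The call was kept with DESeq2's size factors and when 10 or more counts were required in each library. Its log2-fold change was 0.17 without a filter and 0.29 with that minimum count. The log2-fold changes of genes shared with the main fit shifted there by medians of -0.04 and 0.08, respectively. The cause of the lost calls was not tested. HEY1 entered the fit when some libraries were left out, with a log2-fold change of 1.51 (adjusted p = 0.0455) without hypoxia replicate 2 and 1.72 (0.0412) without normoxia replicate 3, but 0.92 (0.256) without normoxia replicate 1 and 0.97 (0.221) without normoxia replicate 2. On FPKM, NOTCH2 was called only without hypoxia replicate 2 (-0.21, adjusted p = 0.0110). Within-library ratios ranged over left-out libraries from 0.68 to 0.73 for NOTCH1 to NOTCH2, 2.18 to 2.59 for NOTCH3 to NOTCH1, 2.87 to 3.31 for NOTCH3 to NOTCH2, 1.15 to 1.27 for JAG2 to JAG1, 3.31 to 3.77 for DLL1 to JAG1 and 2.11 to 2.58 for DLL1 to JAG2 on the log2 scale. None of the 9 tested listed genes and the 15 pathway genes chosen by size reversed its sign; the other genes named were not run under the alternatives.

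The deviations of same-numbered libraries correlated at 0.07, -0.25 and -0.04 across genes. Those of differently numbered libraries correlated at between -0.21 and 0.24. The ranges overlapped, and such correlations cannot show whether the cultures were paired. With the replicate number as a block, 10875 of all genes, 8 listed genes and 39 other pathway genes were called, and HES4 was the listed gene lost (adjusted p = 0.0670). Totals of 29637189 to 37278703 counts limit HEY1, NOTCH4, DLL4, HES5 and DTX1, which lay at or near 3 counts in at least 1 condition.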
